A study of Mus musculus with 4 samples.

Results

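The cells described here are the lymphatic and other endothelial cells of the mouse ventral prostate, a set of 66 cells among 8091 that passed quality limits and 11245 in all. A cell was included with at least 500 UMIs (unique molecular identifiers, each standing for 1 captured transcript), at most 20% mitochondrial counts and at least 3 UMIs of Ccl21a, Mmrn1, Reln, Cavin2 and Ecscr together. It also had at most 1 UMI of the macrophage genes C1qa, C1qb and C1qc, under 0.3% of its UMIs in Col1a2 and Col3a1, and under 10% in Sbp and Spink1, major secreted products of the ventral lobe. All these values were read from the same cells, so the levels of the named genes in the set follow from the choice and carry no test. The set held 31 and 10 cells in the 2 te2 libraries, against 20 and 5 cells in the 2 sham libraries.

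The study set mice given hormone pellets, coded te2, beside sham mice in work on steroid hormone imbalance of the gland. All 4 animals were C57BL6j of wt genotype, and the ventral prostates were taken 2 weeks after the pellets. The hormones behind the code te2 and the ages of the mice are not given in the sources used here. Both lobes of 1 animal made 1 library, so each group had 2 independent animals, and every comparison of the groups below rests on 2 libraries against 2.

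Endothelial cells line every vessel. Lymphatic vessels drain fluid and immune cells from tissue, and their cells are known for the transcription factor Prox1, the receptor Flt4 that binds VEGF-C, the hyaluronan receptor Lyve1 and the chemokine Ccl21a, which draws dendritic cells and T cells carrying Ccr7. Blood capillary and vein cells carry other genes, among them the VEGF receptor Flt1, the fatty acid binding protein Fabp4, the diaphragm protein Plvap and the clotting factor Vwf.

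The te2 libraries were sequenced more deeply, with 12259610 and 13134017 UMIs, against 3999690 and 5513275 UMIs in the sham libraries. The median kept cell had 3426.5 and 4075 UMIs in te2, against 1203.5 and 1722 UMIs in sham. Doublet calling marked 97 of the 8091 kept cells (1.20%) and 0 of the 66. A total of 15 cell barcodes were shared between pairs of libraries, and 0 of these were in the set.

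Promoter sequences are shown for 2 genes that mark lymphatic vessels and 2 that mark blood vessels, since the results turn on which of these programs a cell carried. Each runs from 250 bases before the annotated start up to that start, from RefSeq on build GRCm38.p6, an earlier build than the GRCm39 of the counts. Capitals mark AGGAAG or CTTCCT, the same letters on the other strand, a core that ETS family factors, long studied in endothelial genes, are known to bind.
Ccl21a (chr4:42773992-42774241, minus strand): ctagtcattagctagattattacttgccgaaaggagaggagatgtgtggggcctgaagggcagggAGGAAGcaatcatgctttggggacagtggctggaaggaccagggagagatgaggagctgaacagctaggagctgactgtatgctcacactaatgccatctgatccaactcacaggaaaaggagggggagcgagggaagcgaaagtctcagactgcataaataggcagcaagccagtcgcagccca
Mmrn1 (chr6:60944067-60944316, plus strand): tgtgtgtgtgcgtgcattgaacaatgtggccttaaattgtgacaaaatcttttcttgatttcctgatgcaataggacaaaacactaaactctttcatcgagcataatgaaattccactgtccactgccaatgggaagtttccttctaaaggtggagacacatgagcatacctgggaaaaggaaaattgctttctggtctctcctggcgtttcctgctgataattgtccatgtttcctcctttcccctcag
Flt1 (chr5:147726012-147726261, minus strand): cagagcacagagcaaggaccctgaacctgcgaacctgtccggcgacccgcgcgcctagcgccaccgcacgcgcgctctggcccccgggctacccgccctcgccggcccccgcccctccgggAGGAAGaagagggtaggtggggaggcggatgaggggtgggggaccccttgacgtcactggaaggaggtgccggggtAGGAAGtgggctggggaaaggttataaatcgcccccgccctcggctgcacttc
Emcn (chr3:137340828-137341077, plus strand): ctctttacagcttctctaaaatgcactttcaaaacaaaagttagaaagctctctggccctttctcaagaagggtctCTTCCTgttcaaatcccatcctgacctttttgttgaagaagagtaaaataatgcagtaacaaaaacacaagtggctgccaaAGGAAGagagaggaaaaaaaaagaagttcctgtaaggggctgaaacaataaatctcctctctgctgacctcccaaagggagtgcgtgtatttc
Ccl21a held 1 match and Mmrn1 held 0, whereas Flt1 and Emcn held 2 each. Of the 10 blood vessel genes used below, 6 had a promoter in the table and 5 of these 6 (83.3%) held the letters. Of the 7 lymphatic genes, 6 matched with 7 promoters, and 1 of the 7 (14.3%) held them. Over all 32851 promoters the share was 29.5%. A match is a description of these letters and not of a bound site.

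The set was sorted by setting a cell's UMIs of 7 lymphatic genes (Ccl21a, Mmrn1, Reln, Lyve1, Prox1, Flt4 and Pdpn) against its UMIs of 10 blood vessel genes (Flt1, Plvap, Emcn, Fabp4, Cd36, Gpihbp1, Aqp1, Vwf, Ackr1 and Rgcc). A cell was called lymphatic-like with at least 3 lymphatic UMIs and at least 3 times as many as blood vessel UMIs, and blood vessel-like in the reverse case. By this measure 52 of the 66 cells were lymphatic-like and 7 were blood vessel-like. The lymphatic-like cells had 4 to 244 lymphatic UMIs (median 28.5) and 0 to 5 blood vessel UMIs (median 1). The 7 blood vessel-like cells had 0 lymphatic UMIs each and 4 to 107 blood vessel UMIs (median 36). Gpihbp1, one of the blood vessel genes, went the other way, with 29 UMIs in 20 of the 52 lymphatic-like cells and 0 UMIs in the blood vessel-like cells. Of the other 7 cells, 1 sham cell with 578 UMIs was undetermined, and 6 went against the label, as described next.

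**Figure D1:**
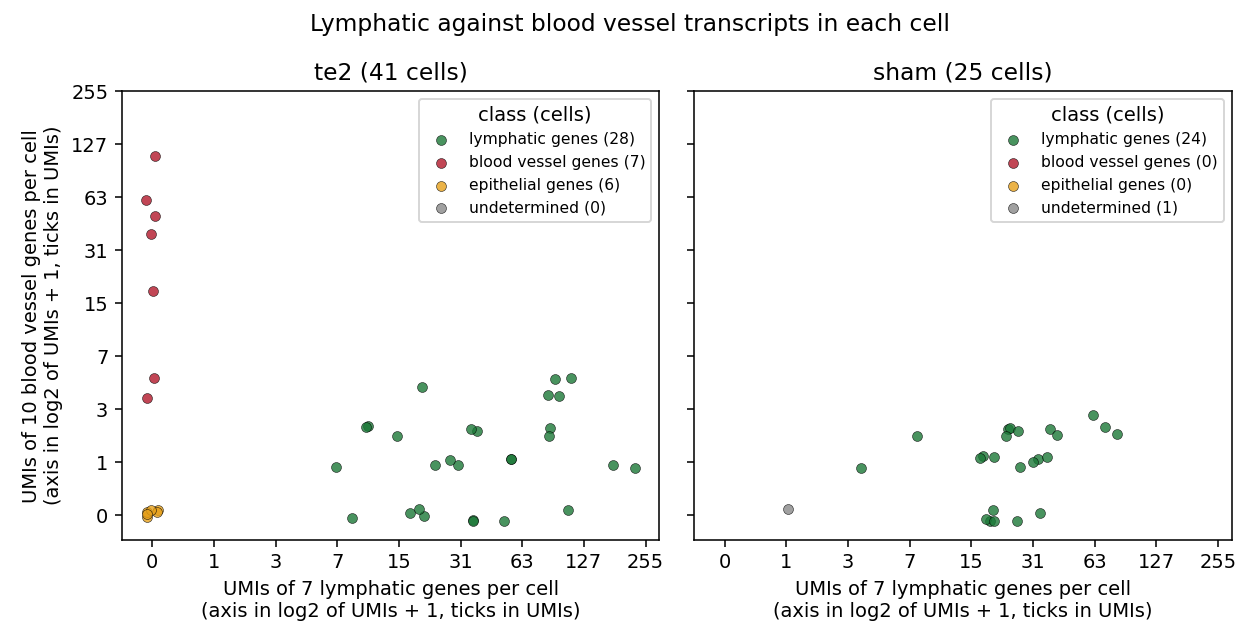
UMIs of 7 lymphatic genes (x axis) against UMIs of 10 blood vessel genes (y axis) in each of the 66 cells, te2 on the left and sham on the right, both axes in log2 of UMIs + 1. The 52 lymphatic-like cells lie along the x axis in both groups, and the 7 blood vessel-like cells along the y axis in te2 alone.

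These 6 cells, 5 and 1 in the te2 libraries and 0 in both sham libraries, were epithelial by their genes. They had 13 to 85 UMIs of Epcam, Krt8 and Krt18, the adhesion molecule and keratins of luminal epithelium, and were picked out by a limit of 10 such UMIs that was set after their values were seen. Each had exactly 3 UMIs of Ecscr, 0 of the other 4 genes of the rule, and 0 to 2 UMIs of other genes found in all endothelial cells. They were large, with 4650 to 21403 UMIs, and held 62.4% and 34.4% of all UMIs of the set in the te2 libraries, where the lymphatic-like cells held 24.4% and 54.6%. The blood vessel-like cells had a median of 1907 UMIs. The lymphatic-like cells had a median of 1086.5 UMIs in te2 and 720 UMIs in sham.

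**Figure D2:**
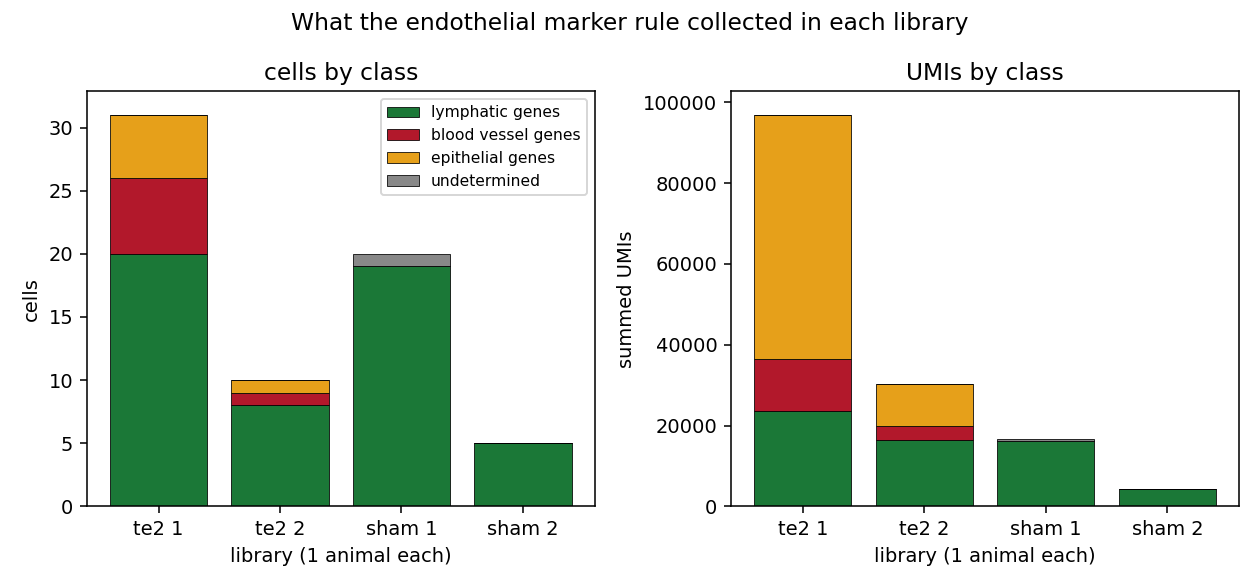
Cells (left, number) and UMIs (right, number) of each class in each library, 1 animal each, te2 libraries left of sham. Lymphatic-like cells make up 24 of the 25 sham cells, whereas in te2 the 6 cells with epithelial genes hold 55.7% of the UMIs.

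At the edge of the marker rule, 8 cells had exactly 3 marker UMIs, of which 6 were the epithelial cells just described, 1 was blood vessel-like and 1 was undetermined. Just outside it, 32 cells had exactly 2 marker UMIs, and 25 of these had epithelial genes while 0 were lymphatic-like. A further 28 cells met every other condition but had under 500 UMIs, and 27 of them were lymphatic-like, 4 and 3 in the te2 libraries against 14 and 6 in the sham libraries. The limit on Sbp and Spink1 left out 7 cells, 6 of them lymphatic-like. The 4 sham cells among the 7 were all lymphatic-like. Of the 3 te2 cells, 2 were lymphatic-like, and all 3 had at least 10 UMIs of the epithelial genes.

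The set made up 1.33% and 0.473% of kept cells in the te2 libraries, against 1.22% and 0.248% in the sham libraries. The range within each group was wider than the gap between them. The difference of the means was 0.169 percentage points (two-sided exact permutation test, p = 0.667), with 2 against 2 libraries allowing no p under 0.33. The difference turned round to -0.0627 points after each cell was thinned to 500 UMIs, and without te2 replicate 1 or sham replicate 2 it was -0.261 and -0.317 points.

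Lymphatic-like cells were 64.5% and 80% of the set in the te2 libraries, against 95% and 100% in the sham libraries. These groups did not overlap, and the difference of -25.2 points gave the smallest p the design allows, 0.33 (two-sided exact permutation test). After thinning to 500 UMIs per cell all 52 lymphatic-like cells were still in the set, but only 1 of 7 blood vessel-like cells and 0 of the 6 epithelial cells, and the difference was -2.38 points. The share of lymphatic-like cells also depends on the rule, which uses 3 of their own genes, and with only genes outside the rule the difference was 9.35 points.

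Lymphatic-like cells were found in all 4 libraries, and their defining genes were abundant in each. Ccl21a, the chemokine, led with 696 and 440 UMIs in te2 and 372 and 136 UMIs in sham. Scaled to a fixed total of the UMIs of these cells (CPM), that was 29474 and 26644 in te2, against 23021 and 30832 in sham. The ranges of the 2 groups overlapped. Ccl21a had a UMI in 50 of the 52 cells, but in 18 of 3212 secretory cells (0.560%), which should lack it, and the level in all other kept cells was 3.42 CPM. Near copies such as Ccl21d make the assignment to Ccl21a uncertain, as the handling of shared reads is not given.

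Lyve1, the hyaluronan receptor, stood at 4192 and 4784 CPM in te2, against 3342 and 2494 CPM in sham, and was seen in 47 of 52 cells. Mmrn1, a secreted multimerin, stood at 3557 and 3512 CPM in te2, against 3032 and 2494 CPM in sham. Reln, a secreted glycoprotein that lymphatic vessels are known to release, stood at 1906 and 1877 CPM in te2, against 1361 and 907 CPM in sham. For these 3 genes both te2 libraries were above both sham libraries, as for 49 of all 215 genes tested in these cells (22.8%). Their counts in the smaller sham library were only 11, 11 and 4 UMIs. Ratios of the summed levels, te2 over sham, were 1.40 for Lyve1, 1.21 for Mmrn1 and 1.5 for Reln, against 1.15 for Ccl21a. They are given without a test, since these genes chose or sorted the cells.

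Prox1, the transcription factor that sets lymphatic identity, had 18 and 9 UMIs in te2 and 10 and 6 UMIs in sham, in 24 of the 52 cells. Flt4, the VEGF-C receptor, had 17 and 17 UMIs in te2 and 20 and 5 UMIs in sham, in 32 cells. Prox1 did not separate the groups, at 762 and 545 CPM in te2 against 619 and 1360 CPM in sham. Flt4 stood at 720 and 1029 CPM in te2, against 1238 and 1134 CPM in sham. Cavin2, a coat protein of caveolae, stood at 3261 and 3149 CPM in te2, against 5260 and 3401 CPM in sham, with a ratio of summed levels of 0.661. For Flt4 and Cavin2 both te2 libraries were below both sham libraries, but the ranges overlapped after the scaling used in the tests below.

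Genes that the rule did not use filled in the same picture. Of the 52 lymphatic-like cells, 51 had a UMI of at least 1 gene found in all endothelial cells other than Ecscr. Cldn5, the tight junction claudin of endothelium, had 30 and 6 UMIs in te2 and 9 and 5 UMIs in sham. In the blood vessel-like cells Cldn5 had 0 UMIs. Cdh5, the adherens junction cadherin, had 9 and 11 UMIs in te2 and 3 and 1 UMIs in sham. Fgl2, a fibrinogen-like protein, was among the most abundant with 87 and 72 UMIs in te2 and 43 and 16 UMIs in sham. Timp3, an inhibitor of matrix proteases, had 86 and 43 UMIs in te2 and 50 and 15 UMIs in sham. Gng11, a G protein subunit, had 63 and 61 UMIs in te2 and 30 and 8 UMIs in sham. Fgl2, Timp3 and Gng11 were on none of the lists and were picked by their levels in these same cells.

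All 7 caveolae genes were detected in the lymphatic-like cells, with 366 UMIs in all, of which Cavin2 gave 229. Of the vascular growth factor receptors 10 of 13 were detected (223 UMIs), against 8 of 14 ligands (26 UMIs), 13 of which the files list. Leukocyte trafficking genes held 1716 UMIs, nearly all of them the 1644 of Ccl21a. Of 21 endothelial transcription factors the files list 18, of which 15 were detected, led by Maf, with 25 and 7 UMIs in te2 and 28 and 7 UMIs in sham, and Nr2f2, with 17 and 13 UMIs in te2 and 10 and 6 UMIs in sham. Among receptors for hormones, the glucocorticoid receptor Nr3c1 had 15 and 8 UMIs in te2 and 8 and 1 UMIs in sham. Esr1, Esr2, Pgr and Prlr, receptors for estrogens, progesterone and prolactin, had 0 UMIs in all 4 libraries. At the depth of these cells, counts of 0 do not show that a receptor is absent.

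Apart from secretory products such as Sbp and Spink1, transcripts of other cell types were few. This was in part by choice, since the rule itself limited the macrophage C1q genes and the fibroblast collagens Col1a2 and Col3a1. Sbp and Spink1, capped by the rule at under 10%, made up a median of 3.67% of a cell's UMIs in sham and 0.309% in te2. Over the 52 cells, the 10 pericyte and smooth muscle genes gave 2 UMIs, the 6 fibroblast genes 12 UMIs, the 5 lymphocyte genes 1 UMI and the 5 basal genes 5 UMIs. Of 8 macrophage genes only Mrc1 was seen, with 12 UMIs, a receptor that lymphatic cells are known to carry as well. The 6 luminal genes gave 423 and 242 CPM in te2, against 433 and 1360 CPM in sham. Of the 10 blood vessel genes, Gpihbp1 had 29 UMIs in 20 cells, Aqp1 21 UMIs in 13, Emcn 19 UMIs in 14, Plvap 3 UMIs in 1 and Cd36 1 UMI, while Flt1, Fabp4, Vwf, Ackr1 and Rgcc had 0. In all, 38 of the 52 cells had at least 1 UMI of these genes.

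**Figure D3:**
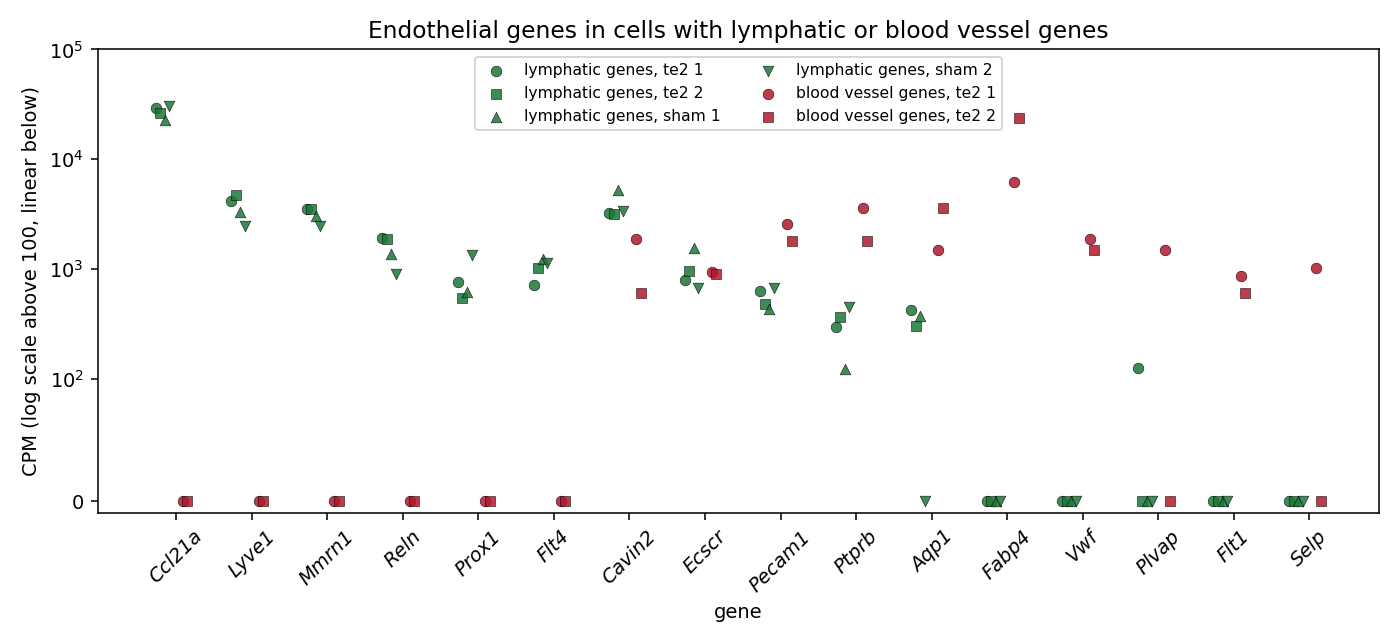
Level of endothelial genes in CPM (log scale above 100, linear below) in lymphatic-like cells of 4 libraries and blood vessel-like cells of the 2 te2 libraries, 1 point per library. Ccl21a, Lyve1 and Mmrn1 are at 0 in blood vessel-like cells, and Fabp4 and Vwf are at 0 in lymphatic-like cells.

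The 7 blood vessel-like cells came from te2 alone, 6 from 1 library and 1 from the other, so nothing can be said of their response to te2. Fabp4, the fatty acid carrier of capillaries, had 158 UMIs in 5 of the 7 cells (9799 CPM), with 79 in each te2 library. Per cell it had 6, 0, 0, 27, 39 and 7 UMIs in te2 replicate 1 and 79 UMIs in the single cell of te2 replicate 2. Aqp1, a water channel, had 31 UMIs in 6 cells, Plvap 19 in 5 and Emcn, a sialomucin, 19 in 5. Vein genes were present as well, Vwf with 29 UMIs in 5 cells, the adhesion molecule Selp with 13 in 4 and the chemokine-binding receptor Ackr1 with 9 in 3. By list, capillary genes gave 244 UMIs and vein genes 60, while of 10 artery genes, 8 of which the files list, only Bmx, a kinase of arterial endothelium, was seen, with 4 UMIs. The set of 7 thus held mixed capillary and vein transcripts and too few cells to divide further.

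Several genes outside the sorting lists were also high in blood vessel-like cells. These genes were picked from the same cells for a level above that of te2 lymphatic-like cells and other kept te2 cells. Their values are therefore a description. Ptprb, a receptor phosphatase of blood endothelium, had 52 UMIs in all 7 cells (3225 CPM), against 324 CPM in te2 lymphatic-like cells. Pecam1, an adhesion molecule, stood at 2419 CPM, against 573 CPM in te2 lymphatic-like cells. Cd200, a surface glycoprotein, stood at 2109 CPM, against 249 CPM. Mgp, a matrix protein, and Tagln, an actin-binding protein better known from smooth muscle, had 27 and 18 UMIs in blood vessel-like cells and 0 in lymphatic-like cells. The other 9 pericyte and smooth muscle genes were at 0 in blood vessel-like cells.

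Blood vessel-like cells were not wholly missing from sham. With no marker rule and no limit on depth, cells with blood vessel genes and at least 3 UMIs of genes found in all endothelial cells numbered 8 and 1 in te2 and 1 and 1 in sham. The sham cells had 396 and 1389 UMIs, and Sbp and Spink1 made up 10.6% and 11.8% of them, above the limit of the rule. As a share of kept cells, blood vessel-like members were 0.258% and 0.0473% in te2. The 0 of 1638 and 0 of 2017 in sham allow shares of up to 0.183% and 0.149%, counting error alone.

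To ask which genes differed between te2 and sham, counts were summed over the cells of each library and tested with edgeR's quasi-likelihood test and Benjamini-Hochberg adjustment (FDR). Over all 66 cells, 34 of 368 genes tested passed FDR 0.05 (9.24%), 18 higher in te2 (4.89%) and 16 lower (4.35%). Cavin2, Sbp and Spink1, genes of the rule, were among the 16, which leaves 31 of 361 genes that the rule did not use (8.59%). Most of the named genes higher in te2 drew their UMIs from the 6 epithelial cells. Of the 12 higher genes named by the smallest p, 11 had over 50% of their te2 UMIs in the 6 epithelial cells (median over the 12 genes 95.5%). Epcam and Krt18, both among the 11, helped to pick out those cells, so for them this follows from the choice. Epcam had 124 UMIs in te2 and 0 in sham, at least 6.88-fold higher against a floor of 3 counts over the sham cells, and 121 of the 124 came from the 6 cells. Agr2, a protein disulfide isomerase of secretory epithelium, had 118 UMIs in te2 and 0 in sham, at least 6.55-fold higher, with 116 from the 6 cells. Defb50, a defensin, had 564 UMIs in te2 and 1 in sham, a ratio of 93.9 with a 95% counting interval of 16.8 to 3714, with 551 from the 6 cells.

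Fabp4 was the exception, with 79 and 79 UMIs in te2 and 0 and 0 in sham, all of them in blood vessel-like cells, at least 8.76-fold higher (FDR 0.000134). The epithelial cells held 0% of its UMIs. Fabp4 was higher in all 4 fits that left out 1 library, but without sham replicate 1 it missed the threshold (FDR 0.304). The counts of cells behind it, 7 blood vessel-like cells in te2 and 0 in sham, moved with it, and their part in the result was not tested.

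**Figure D4:**
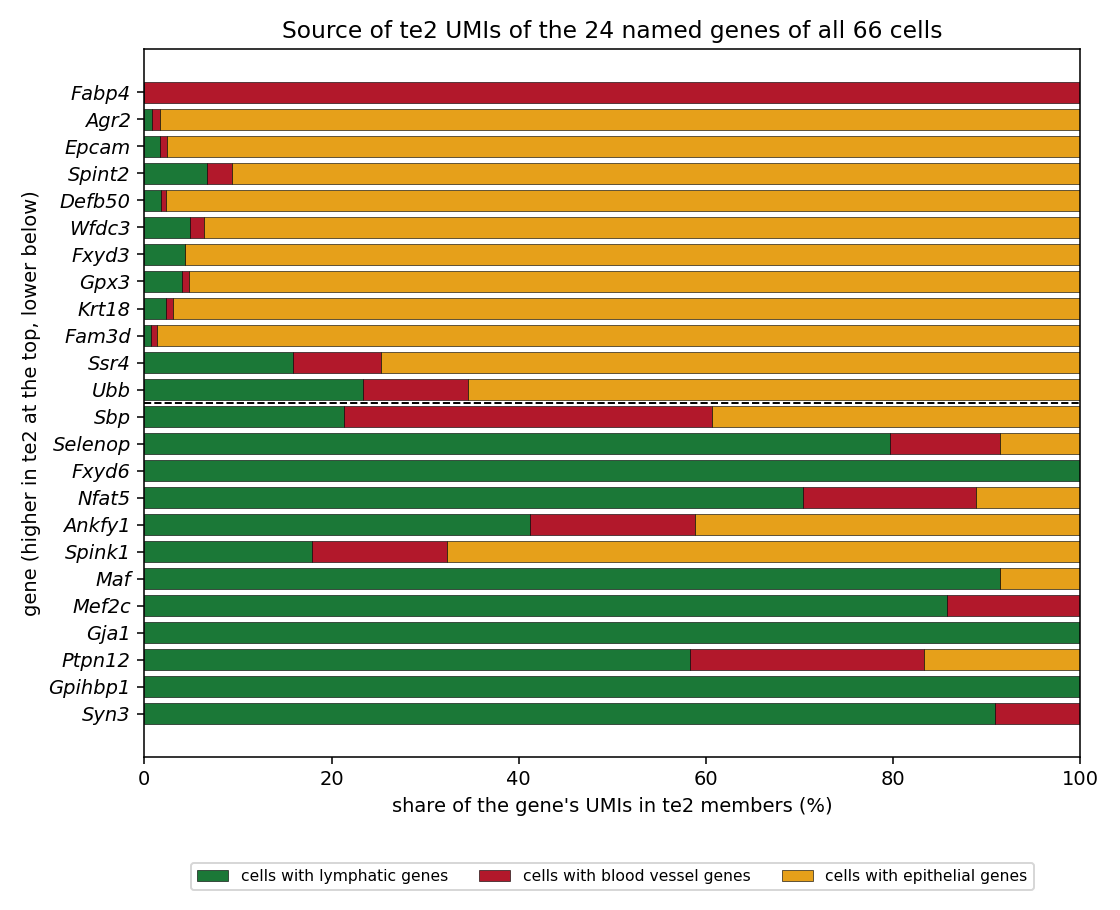
Share (%) of each named gene's te2 UMIs that came from lymphatic-like, blood vessel-like and epithelial cells of the set, the 12 genes higher in te2 at the top and the 12 lower below the dashed line. Of the 12 higher genes, 11 drew over 50% from the 6 epithelial cells, and Fabp4 drew all of its UMIs from blood vessel-like cells. Epcam and Krt18 helped to pick out the epithelial cells, and Fabp4 helped to sort the blood vessel-like cells.

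The 12 named genes lower in te2 included Gpihbp1, a lipase-binding protein of vessel walls, Maf, Fxyd6, an ion pump regulator, Gja1, a gap junction protein, and Mef2c, a transcription factor. Gpihbp1 had 12 UMIs in te2 and 17 in sham over all cells of the set, and all of the te2 UMIs were in lymphatic-like cells. Its log2 fold change was -3.04 over all 66 cells (FDR 0.00329), -1.86 (FDR 0.061) without the 6 epithelial cells and -1.39 (FDR 0.346) over lymphatic-like cells. Maf had 35 UMIs in both groups, with a log2 fold change of -2.65 over all 66 cells (FDR 0.00329) and -1.01 (FDR 0.319) over lymphatic-like cells. Without the 6 epithelial cells, 6 of 238 genes passed (2.52%), and 2 of these 6 were among the 34. The 6 were Fabp4, Vim and mt-Nd3, higher in te2 (1.26%), and Spink1, which the rule capped, Spink5 and 9530002B09Rik, lower in te2 (1.26%). The count of 34 was 0 without sham replicate 1, 15 without sham replicate 2, and 23 and 24 without te2 replicates 1 and 2.

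Within the 52 lymphatic-like cells, which are the only part of the set present in every library in like form, 7 of 215 genes passed FDR 0.05 (3.26%), 1 higher in te2 (0.465%) and 6 lower (2.79%). Sbp and Spink1, which the rule capped, were among the 6. Without the genes that chose or sorted the cells, 5 of 204 genes passed (2.45%), 1 higher and 4 lower. Vim, the intermediate filament of endothelial and mesenchymal cells, was the higher one. It had 71 and 51 UMIs in te2 (3007 and 3088 CPM) and 22 and 3 UMIs in sham (1361 and 680 CPM). Both te2 libraries were above both sham libraries, and the log2 fold change was 1.46 ± 0.42 (SE, edgeR FDR 0.0246). Vim missed the threshold without sham replicate 1 (FDR 0.0754), sham replicate 2 (FDR 0.309) or te2 replicate 2 (FDR 0.427), and with DESeq2 (FDR 0.933), always higher in te2. Over lymphatic-like cells of any depth its log2 fold change was 1.0 (FDR 0.183). In cells with collagen genes Vim stood at 1483 and 1693 CPM in te2, against 1131 and 512 CPM in sham, and in cells with C1q genes at 568 and 765 CPM in te2, against 503 and 438 CPM in sham.

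The capped genes had the smallest p of the 6 lower ones. Spink1, a secreted protease inhibitor, had 49 and 13 UMIs in te2 (2075 and 787 CPM) and 315 and 81 UMIs in sham (19494 and 18363 CPM). Sbp, the spermine-binding protein, had 35 and 84 UMIs in te2 (1482 and 5087 CPM) and 269 and 152 UMIs in sham (16647 and 34459 CPM). Both te2 libraries were far below both sham libraries for both genes, but the rule capped these 2 genes, so the values are a description. Per cell, the 2 together were a median of 0.309% of UMIs in te2 and 3.67% in sham.

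Spink5, another protease inhibitor, had 13 and 3 UMIs in te2 and 24 and 16 UMIs in sham, a log2 fold change of -2.34 ± 0.55 (SE, edgeR FDR 0.00128). The gene 9530002B09Rik had 9 and 3 UMIs in te2 and 32 and 10 UMIs in sham, a log2 fold change of -2.67 ± 0.58 (SE, edgeR FDR 0.000317). Both were lower in te2 in every fit that left out 1 library, and both missed the threshold without sham replicate 1 (FDR 0.0715 for Spink5 and 0.250 for 9530002B09Rik), sham replicate 2 (FDR 0.323 and 0.161) or te2 replicate 2 (FDR 0.423 and 0.138). Secretory cells of the ventral lobe are known to make Spink1 and Sbp. Spink1 and Sbp were also lower in te2 in other cells that are not known to make them. Spink1 stood at 3003 and 3179 CPM in te2 cells with C1q genes, against 20802 and 20147 CPM in sham, and at 801 and 1080 CPM in te2 cells with collagen genes, against 14270 and 15314 CPM in sham. Sbp stood at 3712 and 16465 CPM in te2 cells with C1q genes, against 28624 and 23948 CPM in sham. Spink5 differed by kind of cell, at 2114 and 2532 CPM in te2 cells with C1q genes, against 1687 and 1596 CPM in sham, and at 237 and 419 CPM in te2 cells with collagen genes, against 796 and 927 CPM in sham. The part of transcripts from secretory cells in the lower levels in lymphatic-like cells was not tested.

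Rplp2 and Rpl37a, proteins of the large ribosomal subunit, were the remaining lower genes. They are 2 of 45 ribosomal protein genes tested, a group gathered after the values were seen, of which 16 had positive and 29 negative log2 fold changes (median -0.12, against 0.08 over all 215 genes). Rps2, of the small subunit, had the highest value at 1.56 (FDR 0.0964) and did not pass. Rplp2 had 26 and 13 UMIs in te2 (1101 and 787 CPM) and 46 and 12 UMIs in sham (2847 and 2720 CPM), a log2 fold change of -1.44 ± 0.43 (SE, edgeR FDR 0.0304). Rpl37a had 61 and 32 UMIs in te2 (2583 and 1938 CPM) and 83 and 22 UMIs in sham (5136 and 4988 CPM), a log2 fold change of -1.05 ± 0.33 (SE, edgeR FDR 0.0498). The groups did not overlap for either gene, but Rpl37a missed the threshold without any 1 library (FDR 0.0821 to 0.769) and Rplp2 without sham replicate 1 (FDR 0.408), sham replicate 2 (FDR 0.241) or te2 replicate 2 (FDR 0.676). Rpl37a was also lower in cells with C1q genes, at 4307 and 2828 CPM in te2, against 6303 and 6022 CPM in sham. Ribosomal protein genes have many pseudogene copies, so their counts are uncertain.

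**Figure D5:**
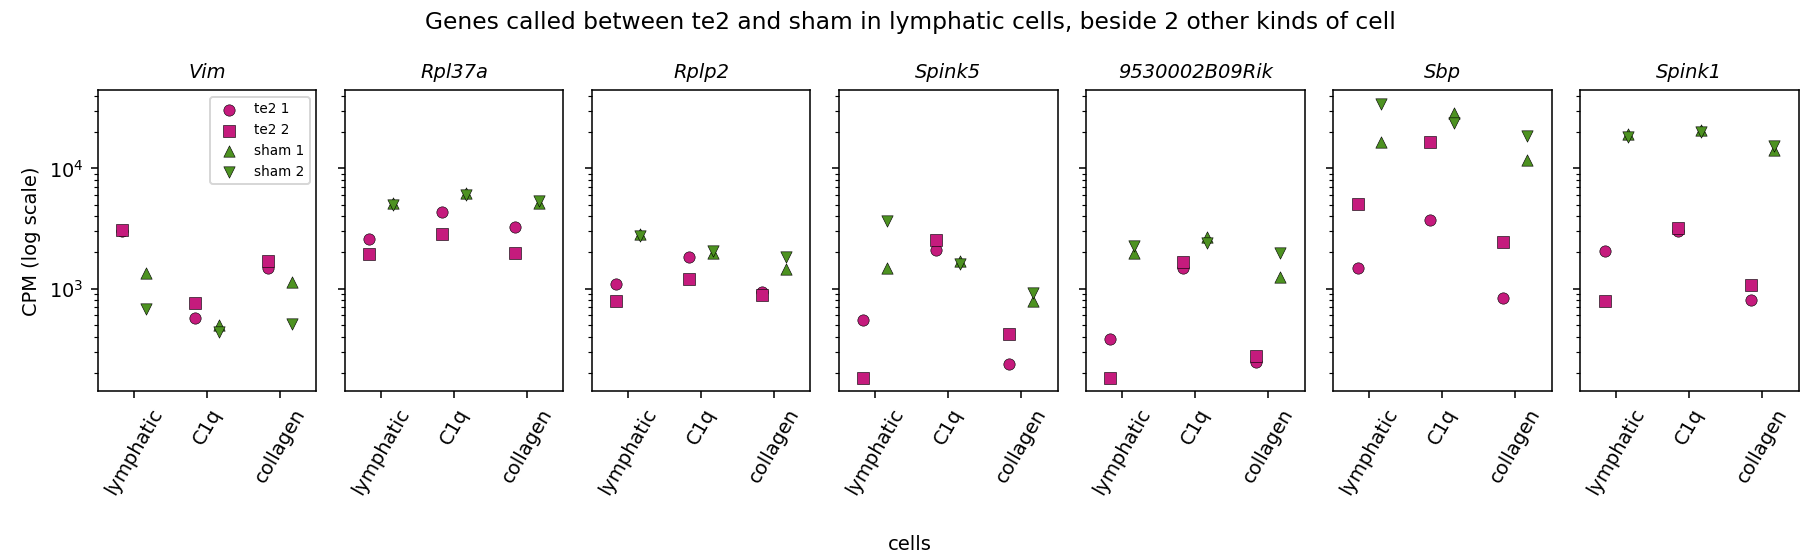
Level in CPM (log scale) of the genes that passed between te2 and sham in lymphatic-like cells, in those cells and in cells with C1q and with collagen genes, 1 point per library, te2 left of sham. Spink1 and Sbp are lower in te2 in all 3 kinds of cell, and Vim in lymphatic-like cells stands at 3007 and 3088 CPM in te2, against 1361 and 680 CPM in sham.

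Leaving out te2 replicates 1 and 2 gave 8 and 2 genes in place of 7, and leaving out sham replicates 1 and 2 gave 2 and 1. With lymphatic-like cells of any depth, 6 of 271 genes passed (2.21%), 1 higher in te2 (0.369%) and 5 lower (1.85%), Sbp and Spink1 again among them, and 5 of the 6 were among the 7. The sixth was Stab1, a scavenger receptor of lymphatic and sinusoidal endothelium, which was higher in te2 (log2 fold change 1.78, edgeR FDR 0.0399). At 500 UMIs and more, Stab1 had 33 and 24 UMIs in te2 (1397 and 1453 CPM) and 5 and 3 UMIs in sham (309 and 680 CPM), with a log2 fold change of 1.90 ± 0.62 (SE, edgeR FDR 0.0644).

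The lists of transcription factors, junctions, caveolae and growth factor receptors were examined without the genes that chose or sorted the cells. Abundant enough to test in lymphatic-like cells were 3 transcription factors (Maf, Nr2f2 and Ets2), 2 junction genes (Cldn5 and Pecam1), 1 caveolae gene (Cav1) and 1 growth factor receptor (Kdr). By edgeR 0 of them passed, with 31 of all 215 genes at an unadjusted p under 0.05. The median log2 fold change was -1.01 for the transcription factors and 0.33 for the junction genes. Cldn5, Pecam1 and Kdr, the main VEGF receptor, had log2 fold changes of 0.38, 0.28 and 0.16, each with an SE of 0.60 or more. Changes of that size were not detectable at this depth. From other lists, Ramp2, Fxyd6, Col4a1, Col4a2 and Lama4 were tested as well and did not pass. Their log2 fold changes were 2.40, -0.39, 1.17, -0.55 and 0.18. Ramp2, a gene found in all endothelial cells, had the highest value of all 215 genes (edgeR FDR 0.104). It had 18 and 12 UMIs in te2 and 3 and 0 UMIs in sham. In all, 92 of the 215 genes (42.8%) had te2 and sham libraries that did not overlap, 49 with te2 higher (22.8%) and 43 with te2 lower (20%). Over all 66 cells it was 179 of 368 genes (48.6%), 101 with te2 higher (27.4%) and 78 lower (21.2%), so a gap between 2 and 2 libraries was common and is no finding by itself.

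Whether te2 acted differently on the set than on all other kept cells was tested as an interaction, with the library as a block. The difference passed FDR 0.05 for 19 of 368 genes (5.16%), 16 with a more positive te2 change in the set (4.35%) and 3 with a more negative one (0.815%). Mmrn1, a gene of the rule, was among the 16, which leaves 18 of 361 genes that the rule did not use (4.99%). Also among the 16 were the epithelial genes Epcam, Agr2, Krt18, Fxyd3 and Defb50, and Fabp4. Among the 3 was Selenop, the selenium carrier protein, whose difference was -1.53 ± 0.42 in log2 (SE, edgeR FDR 0.0160). Over lymphatic-like cells alone Selenop stood at 3134 and 1696 CPM in te2, against 3156 and 3854 CPM in sham, and did not pass between te2 and sham (FDR 0.758). With only lymphatic-like cells against all other kept cells, 16 of 215 genes passed (7.44%), 13 with a more positive change (6.05%) and 3 with a more negative one (1.4%). Without Mmrn1, Cavin2, Spink1 and the other genes that chose or sorted the cells it was 13 of 204 genes (6.37%), 11 more positive and 2 more negative. Spink5 had the smallest p, with a difference of -2.72 ± 0.56 (SE, edgeR FDR 0.000298). Vim was also among the 13, with a difference of 2.03 ± 0.57 (SE, edgeR FDR 0.0129). Ramp2 was another, with a difference of 3.65 ± 1.12 (SE, edgeR FDR 0.0214), on 3 and 0 UMIs in sham. Vim in all other kept cells stood at 65.5 and 67.0 CPM in te2, against 101 and 23.2 CPM in sham, overlapping between the groups. The count of 19 was 1 and 7 without sham replicates 1 and 2, and 6 and 2 without te2 replicates 1 and 2.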

How the data were processed

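Per the labels' protocols, ventral prostate lobes of 4 mice were dissociated with a cold-active protease, strained and loaded on a droplet platform that counts UMIs. The authors deposited raw counts of UMIs, 1 table per library. The submitters' processing notes name Seurat 5.0.1, R 4.3.2, kallisto 0.46.1, bustools 0.39.4 and build GRCm39, with no role for each. Where a library's table leaves out a gene, 0 was used.

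The members and gene lists were chosen with earlier results of these data known. Genes were named by smallest p (12 higher and 12 lower in te2, mean of at least 100 CPM) where over 24 passed, otherwise all that passed, and from the lists. Doublets were called with scanpy 1.11.5 and kept. Counts were summed per library and tested with edgeR 4.0.16 in R 4.3.3 (TMM factors, default filter, two-sided). CPM in the text is per total UMIs of the class. DESeq2 1.42.0, other filters and thresholds, thinned counts and each library left out were alternatives. The te2 against sham tests were checked on simulated data with large changes and the same spread for every gene. The test of the difference was only run on such data, and its recovery of changes was not scored. Shares were compared with exact permutation tests. Intervals are exact and cover counting error only. 1 gene of the lists is not reported here.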

Additional observations from a re-analysis of the deposited data

Results flagged for a closer look

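The te2 response of the endothelial set differed from that of all other kept cells for 19 of 368 genes, by a test of the difference itself (edgeR interaction term, FDR 0.05). Mmrn1, 1 of the 19, was also used to choose the cells. Defb50 showed the smallest p, with a difference of 5.11 ± 1.02 in log2 (SE), and 551 of its 564 te2 UMIs lay in the 6 cells with epithelial genes. Without those 6 cells the count was also 19, of 238 genes tested, 18 with a more positive change and 1 with a more negative one. These were not all the same genes, since Defb50, Agr2, Epcam, Krt18 and Fxyd3 then no longer passed the filter on counts. All other kept cells are a mixture of epithelial, stromal and immune cells, and the part of its make-up in the difference was not tested.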

How the results depend on the processing

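Sets of 66 and 52 cells in 2 animals per group limit every value above: shallow sham cells, 6 epithelial cells and the limits of the rule each move the counts. The count of 34 genes over all cells was 4 with DESeq2, 15 with no filter on low counts, 0 with summed counts thinned to equal totals (edgeR, 6 of 39 genes at an unadjusted p under 0.05), 271 with at least 2 marker UMIs, 4 with at least 5, 0 with Sbp and Spink1 under 3% (which leaves no cell of sham replicate 2; edgeR, 71 of 652 at p under 0.05), 6 without the 6 epithelial cells and 7 with lymphatic-like cells only. Leaving out 1 library gave 0 (117 of 756 at p under 0.05, edgeR) to 24. The count of 7 in lymphatic-like cells was 1 with DESeq2, 2 with no filter, 1 with Sbp and Spink1 under 3%, and 1 to 8 without 1 library. The count of 19 for the difference was 163 with at least 2 marker UMIs, 1 with Sbp and Spink1 under 3%, 8 without TMM factors, 0 with no filter (edgeR, 385 of 11370 at p under 0.05), 6 against cells with collagen genes, and 1 to 7 without 1 library. Samples with the same replicate number shared no more than that number (correlation of deviations -0.0677 over all cells and -0.0498 over lymphatic-like cells). With the number as a replicate block the counts were 24, 2 and 0 (edgeR, 73 of 368 at p under 0.05 for the last). The difference in the share of kept cells was -0.0884 points with cells of any depth, -0.956 as a share of kept cells with Sbp and Spink1 under 10%, and -0.0627 after thinning, and ran over -0.317 to 0.656 without 1 library. The difference in the lymphatic-like share was -52.9 points with at least 2 marker UMIs, -14.3 with at least 5, -39.3 at 1000 UMIs per cell, -14.6 without the 6 epithelial cells, -10.1 without Ccl21a, -2.38 after thinning, 9.35 with genes outside the rule, and -33.0 to -17.5 without 1 library. Of the named genes, Gpx3 turned to -0.32 with at least 2 marker UMIs, Ccl21a to -0.0083 with thinned sums and -0.10 with Sbp and Spink1 under 3%, and Cavin2 ran from -0.75 to 0.23 without 1 library (0.23 without sham replicate 1), all in log2. Of 291 values of named genes over all cells, 145 kept direction and call, 145 lost the call and 1 reversed, and of 165 over lymphatic-like cells 118 kept both, 44 lost the call and 3 reversed. Dropping TMM factors moved the median of all genes by 0.15, 0.12 and -0.40 in log2 for the 3 tests in turn. In all cases the cause was not tested. Fits at 1000 UMIs per cell were not run, since each sham library then had under 5 cells, nor was the lymphatic-like share with Sbp and Spink1 under 3%.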

Other observations

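Blood vessel-like cells carried more MHC class I transcripts for their depth than lymphatic-like cells of the same group, at 5706 CPM (92 UMIs in 7 cells) against 1545 CPM (62 UMIs in 28 te2 cells). B2m, the shared light chain, stood at 2047 CPM in blood vessel-like cells and 424 CPM in te2 lymphatic-like cells. Interferon response genes stood at 682 CPM (11 UMIs) in blood vessel-like cells and 897 CPM (36 UMIs) in te2 lymphatic-like cells. Genes of immediate early and dissociation stress responses stood at 1737 CPM in blood vessel-like cells and 1819 CPM in te2 lymphatic-like cells. All of these compare cells of 2 libraries, with 6 of the 7 blood vessel-like cells from 1 animal, and carry no test.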
